A study of Homo sapiens with 16 samples.

Results

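The E proteins TCF3 (E2A), TCF4 (E2-2) and TCF12 (HEB) and their inhibitors ID1, ID2 and ID3 were followed by mRNA level through 4 human immune cancer lines, each with and without 4 hours of stimulation. These 6 genes were taken by symbol from the 27311 genes of the deposited tables, and all 6 passed the filter on low values, which asked for 1 TPM or more in 2 or more of the 16 libraries. TPM counts reads per transcript length as a share of the library, so levels of different genes are set side by side here. Differences with gene length and GC content that remained in some libraries are given below. The symbols were not mixed with the TCF7L1 and TCF7L2 genes, which share older names with TCF3 and TCF4, since those 2 have rows of their own.

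The stimulated groups were THP-1 cells given bacterial lipopolysaccharide (LPS) at 1 µg/ml, U937 cells given LPS at 200 ng/ml, Jurkat cells given an antibody to CD3 (5 µg/ml) with the phorbol ester PMA (100 ng/ml), and BJAB cells given antibodies to IgM (10 µg/ml) and to CD40 (4 µg/ml). Each was set against untreated cells of its line, with 2 libraries per group and no statement of whether these came from separate cultures, so a p-value measures the spread between libraries, which may be technical. THP-1 and U937 are labelled monocytic lines, Jurkat a T cell line and BJAB a B cell line. All THP-1 cells, stimulated or not, carried dCas9-KRAB, a fusion of nuclease-dead Cas9 and the KRAB repressor domain, whereas the other lines are labelled wild type. For THP-1 against any other line, the line and dCas9-KRAB cannot be told apart.

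E proteins are basic helix-loop-helix transcription factors that bind DNA as dimers at the E-box, and in lymphocytes they drive B and T lineage genes, antigen receptor assembly and cell cycle arrest. ID proteins have the helix-loop-helix but lack the basic DNA-binding region, so an E protein paired with an ID protein cannot bind. Antigen receptor signals through ERK and EGR factors are known from mouse thymocytes to induce Id3, and ID2 is known for its part in innate lymphoid, myeloid and effector T cells.

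ID2 and ID3 were the genes that passed the test on stimulation, so the 250 bases before their annotated starts are shown, from RefSeq on GRCh38.p14, each read 5′ to 3′ on the strand of the gene. Capitals mark matches, on either strand, to the E-box CANNTG, which E proteins bind, or to GCGNGGGCG, the core motif of the EGR factors. The ID2 promoter lies at chr2:8681806-8682055 on the plus strand and the ID3 promoter at chr1:23559502-23559751 on the minus strand.
ID2: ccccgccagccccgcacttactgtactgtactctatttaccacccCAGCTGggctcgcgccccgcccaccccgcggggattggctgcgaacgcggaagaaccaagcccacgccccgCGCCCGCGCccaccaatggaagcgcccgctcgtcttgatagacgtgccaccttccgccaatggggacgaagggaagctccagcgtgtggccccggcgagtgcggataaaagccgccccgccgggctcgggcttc
ID3: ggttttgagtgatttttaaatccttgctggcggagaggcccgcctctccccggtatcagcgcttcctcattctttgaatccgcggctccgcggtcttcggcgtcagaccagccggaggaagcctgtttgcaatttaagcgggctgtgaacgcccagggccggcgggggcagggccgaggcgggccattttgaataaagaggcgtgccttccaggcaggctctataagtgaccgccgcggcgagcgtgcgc

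The ID2 window held 1 E-box, beginning 205 bases before the start, and 1 EGR match on the opposite strand, beginning 134 bases before it. The ID3 window held neither, so none of its bases is in capitals. Among all 35116 annotated promoters of the same length, 61.8% held an E-box and 8.41% the EGR motif, and the 2 motifs do not overlap in the ID2 window. The ID1 window also held neither. It held TATAAA on both strands around 31 to 33 bases before the start, a motif found in 10.7% of the promoters and not marked in capitals here. Among the E proteins, TCF3 has 1 annotated start, with an EGR match 15 bases before it and no E-box. TCF12 has 5 annotated starts, of which 2 windows held an E-box, and TCF4 has 10. A match is a stretch of letters and not a measured binding site.

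Depth, rebuilt from the smallest TPM increments, was 4125221 to 8431295 reads per library, with 12731 to 15013 genes above 0. The lines carried their own markers: all 8 monocytic markers were at 1 TPM or more in untreated THP-1 cells, all 8 T cell markers in untreated Jurkat cells and all 8 B cell markers in untreated BJAB cells, whereas untreated U937 cells had 5 of 8 monocytic markers and CD14 at 0. Some markers of other lineages also reached 1 TPM: untreated BJAB cells had 3 of 8 monocytic and 3 of 8 T cell markers. Untreated THP-1 and U937 cells each had 3 of 8 B cell markers, and untreated Jurkat cells 2 of 8 B cell and 1 of 8 monocytic markers. The 2 libraries of a group correlated at r = 0.984 to 0.991 over tested genes in 6 groups, but at 0.943 in LPS-treated U937 and 0.939 in stimulated BJAB cells. Over all tested genes, the first LPS library of U937 read lower with gene length, by a median log2 difference from the untreated mean of 0.11 in the shortest quintile of genes and -0.76 in the longest. The first stimulated BJAB library read lower with GC content, by 0.03 in the quintile of lowest GC and -1.06 in the quintile of highest GC. TCF12 and TCF4 fall in the longest quintile and the ID genes in the shortest, TCF3 and ID1 in the quintile of highest GC, and ID2 and ID3 in the next one. The part of length and GC in the U937 and BJAB results was not tested. The changes of single genes on stimulation named for these lines are also given without these 2 libraries. The ratios are not, nor are differences between responses other than that of ID2 between Jurkat and BJAB.

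**Figure D1:**
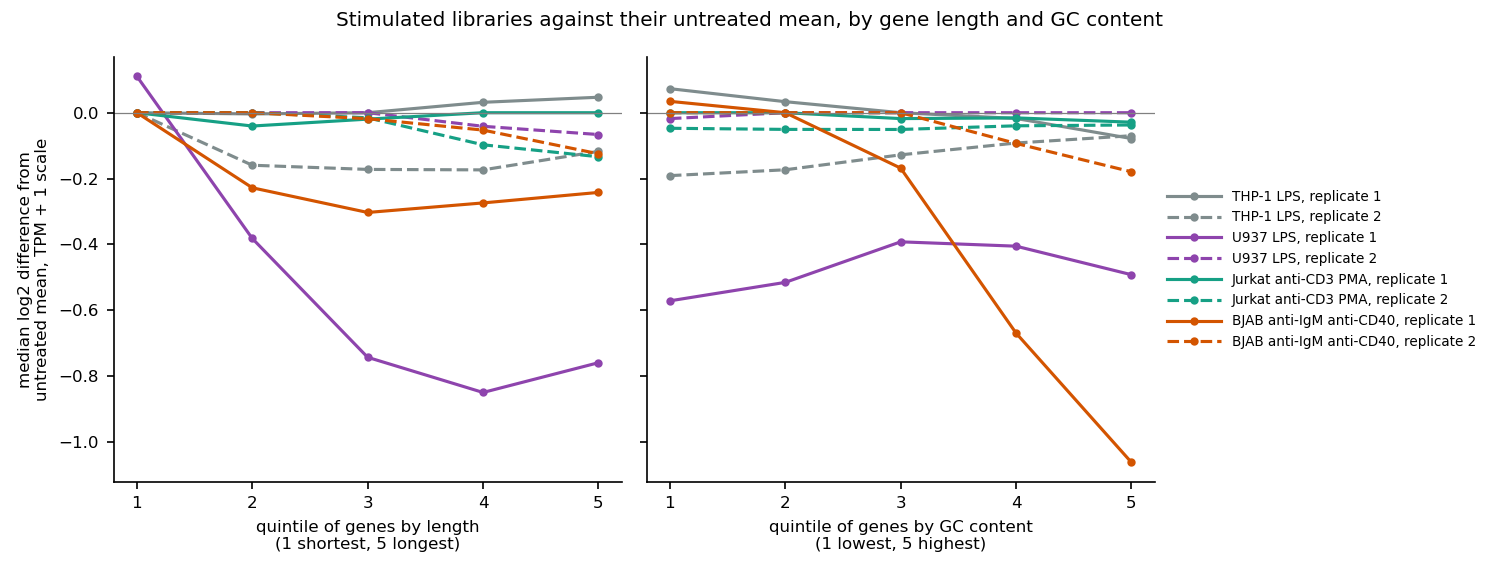
Median log2 difference of each stimulated library from the mean of its 2 untreated libraries (y axis, log2(TPM + 1) scale), in quintiles of the tested genes by length (left) and by GC content (right). Solid lines are first libraries and dashed lines second libraries; the first U937 library drops to -0.85 in the next-to-longest quintile and the first BJAB library to -1.06 in the quintile of highest GC, while the other 6 stay between -0.19 and 0.07.

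The untreated lines differed in which E protein and which ID gene they used. TCF4, the E protein best known from plasmacytoid dendritic cells and B cells, was at 69.6 and 78.0 TPM in untreated BJAB cells, and between 1.11 and 3.83 TPM in the untreated libraries of the other lines. In BJAB no E protein made up most of the sum, TCF3 having 36.7 and 41.8% of the summed E protein TPM, TCF4 41.0 and 39.2%, and TCF12 22.3 and 18.9%. In the other lines TCF12 was the largest share, at 71.3 and 74.7% in THP-1, 65.3 and 62.6% in U937, and 68.8 and 60.8% in Jurkat. TCF12 reached its highest level, 117.05 and 100.1 TPM, in untreated Jurkat cells. TCF3 ranged over the untreated libraries from 28.8 TPM in THP-1 to 83.2 TPM in BJAB.

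ID2 was the main ID mRNA of the monocytic lines, with 69.4 and 70.6% of the summed ID TPM in untreated THP-1 and 88.5 and 87.4% in untreated U937 cells. Untreated Jurkat cells had ID2 at only 6.94 and 3.82 TPM and carried mostly ID3, at 65.8 and 80.7 TPM. Untreated BJAB cells had both, ID2 at 225.8 and 212.2 TPM and ID3 at 264.3 and 257.9 TPM. ID1, the family member best known as a target of BMP signals, was highest in THP-1 and lowest in BJAB among the untreated lines. It was at 42.3 and 41.0 TPM in THP-1, 17.8 and 16.8 TPM in U937, 10.8 and 13.2 TPM in Jurkat, and 0 and 0.510 TPM in BJAB cells. The BJAB values rest on 0 and 2 reads, and 0 reads in that library allow a level of up to 0.835 TPM (3 reads, counting error only). ID4, the remaining member of the ID family, was listed at 0 in all 16 libraries.

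**Figure D2:**
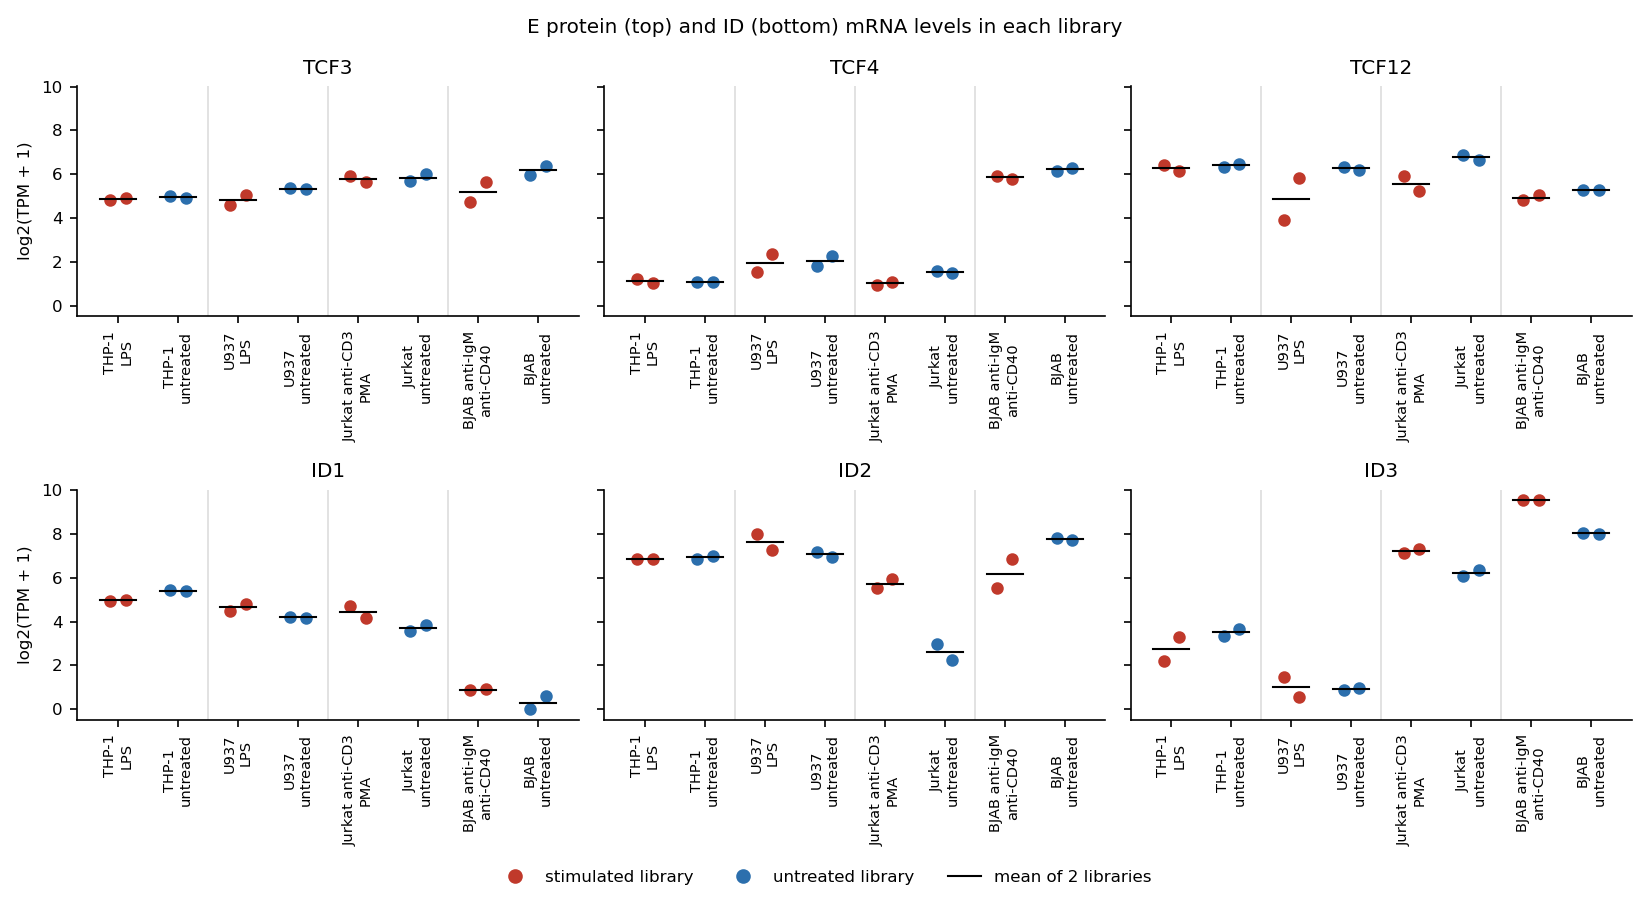
Level of each E protein (top) and ID gene (bottom) as log2(TPM + 1) in every library, grouped by line, with stimulated libraries in red, untreated libraries in blue and a bar at the mean of the 2. TCF4 stands high in BJAB alone, ID1 is lowest in BJAB, and ID2 in Jurkat shows the widest gap between stimulated and untreated libraries.

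Between untreated lines, tests on log2(TPM + 1) with limma, adjusted over all 14398 tested genes, gave the following. In Jurkat minus BJAB, 5 of the 6 genes passed an adjusted p of 0.05, against 31.8% of all tested genes: TCF4 (log2 difference -4.69 ± 0.27, SE), ID2 (-5.15 ± 0.41) and ID3 (-1.83 ± 0.37) were lower in Jurkat, and TCF12 (1.496 ± 0.47) and ID1 (3.402 ± 0.27) higher. In BJAB minus THP-1, 4 passed (background 35.5%): TCF3 (1.24 ± 0.31), TCF4 (5.15 ± 0.27) and ID3 (4.53 ± 0.37) were higher in BJAB and ID1 (-5.12 ± 0.27) lower. In BJAB minus U937, 3 passed (background 33.9%), with TCF4 (4.19 ± 0.27) and ID3 (7.10 ± 0.37) higher in BJAB and ID1 (-3.90 ± 0.27) lower. In Jurkat minus THP-1, 4 passed (background 35.1%), with TCF3 (0.90 ± 0.31) and ID3 (2.70 ± 0.37) higher in Jurkat and ID1 (-1.72 ± 0.27) and ID2 (-4.31 ± 0.41) lower. In Jurkat minus U937, 2 passed (background 32.6%), ID2 (-4.44 ± 0.41) being lower and ID3 (5.27 ± 0.37) higher in Jurkat.

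The 2 monocytic lines also differed. In THP-1 minus U937, 3 genes passed (background 25.9%): ID1 (1.22 ± 0.27) and ID3 (2.57 ± 0.37) were higher in THP-1 and TCF4 (-0.96 ± 0.27) was lower. ID3 was at 9.19 and 11.7 TPM in untreated THP-1 cells and at 0.862 and 0.970 TPM in untreated U937 cells, the U937 values resting on 2 and 4 reads. ID2 did not pass in this pair, with a 95% interval of -1.03 to 0.76 for the log2 difference. With 25.9 to 35.5% of all tested genes past the threshold in these pairs, the counts describe the 6 genes and are not particular to them. The sign of each called difference was the same under every alternative tried, but 5 calls between untreated lines were lost under some of their 15 alternatives. TCF3 in Jurkat minus THP-1 passed in 9 (adjusted p up to 0.209), and was lost without any 1 of the 4 libraries compared, under median-of-ratios scaling and with the replicate number as a block (adjusted p = 0.0531). TCF12 in Jurkat minus BJAB passed in 10 (adjusted p up to 0.150), and was lost without any 1 of its 4 libraries and with the block (adjusted p = 0.0504). TCF4 in THP-1 minus U937 passed in 11 (adjusted p up to 0.185), and was lost with a pseudocount of 5 and without either THP-1 library or the second U937 library. TCF3 in BJAB minus THP-1 passed in 13, and was lost without the second THP-1 library (adjusted p = 0.0532) or the second BJAB library (adjusted p = 0.0757). ID1 in THP-1 minus U937 passed in 14, and was lost with a pseudocount of 0.1 (adjusted p = 0.190).

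The order of the 8 group means placed TCF4 first in untreated BJAB and second in stimulated BJAB cells, whose libraries did not overlap (53.3 to 60.5 TPM stimulated, 69.6 to 78.0 TPM untreated), and all 6 other groups at 4.08 TPM or less. For TCF3 most neighbours overlapped: of the 7 steps down the order, the 1 without overlap was that between stimulated Jurkat (49.5 to 59.3 TPM) and untreated U937 cells (39.4 to 40.1 TPM). TCF12 ran from untreated Jurkat (100.1 to 117.05 TPM) to stimulated BJAB cells (27.5 to 31.9 TPM), and its lowest 4 groups each overlapped the next. For ID1 the order led from untreated THP-1 to untreated BJAB cells, and its overlapping neighbours were LPS-treated U937, stimulated Jurkat and untreated U937 cells. ID2 led from untreated BJAB (212.2 to 225.8 TPM), which overlapped LPS-treated U937 cells (154.3 to 253.2 TPM), down to untreated Jurkat cells, with further overlaps between untreated U937 and untreated THP-1 and between stimulated BJAB and stimulated Jurkat cells. ID3 had 1 overlap in its 7 steps, at the foot of the order, between LPS-treated and untreated U937 cells.

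Stimulation of Jurkat cells was followed by a rise of ID2. ID2 stood at 45.0 and 59.9 TPM (205 and 273 reads) in cells given anti-CD3 and PMA, against 6.94 and 3.82 TPM (34 and 15 reads) in untreated cells. Both stimulated libraries were above both untreated ones, by a log2 change of 3.10 ± 0.41 (SE; 95% interval 2.20 to 3.99; adjusted p = 0.000621). It was the 1 gene of the 6 past the threshold, against 4.87% of all tested genes (3.02% higher and 1.85% lower). Over the 15 alternatives the change ran from 2.47 to 3.46, and the call was lost when only the 4 Jurkat libraries were fitted (adjusted p = 0.0710).

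ID3 in Jurkat was at 139.2 and 157.4 TPM in stimulated cells and at 65.8 and 80.7 TPM in untreated cells, with no overlap, yet its log2 change of 1.01 ± 0.37 did not pass (adjusted p = 0.215). ID1 was at 25.03 and 16.8 TPM in stimulated cells and at 10.8 and 13.2 TPM in untreated cells (0.73 ± 0.27, adjusted p = 0.232). All 3 ID genes had both stimulated libraries above both untreated ones, a separation that 21.0% of all tested genes also had, as well as 28.7% in the other direction.

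Among the E proteins in Jurkat, TCF12 was at 59.1 and 36.3 TPM in stimulated cells and at 117.05 and 100.1 TPM in untreated cells. The groups did not overlap, and the 2 stimulated libraries were far apart. The log2 change of -1.21 ± 0.47 did not pass (adjusted p = 0.267). Its SE is shared by all 8 groups and so also holds the spread of LPS-treated U937 cells (14.1 and 55.4 TPM). TCF4 was at 0.947 and 1.13 TPM in stimulated cells and at 1.96 and 1.83 TPM in untreated cells (adjusted p = 0.526). TCF3 overlapped, at 59.3 and 49.5 TPM in stimulated and 51.1 and 62.8 TPM in untreated cells, with a 95% interval of -0.75 to 0.62. In 1 alternative the first stimulated U937 and BJAB libraries were left out of the shared estimate of spread. TCF12 (adjusted p = 0.00344) and ID3 (adjusted p = 0.0469) then passed beside ID2, with the same log2 changes. TCF12 and ID3 each passed in only 2 of their 15 alternatives. The other was quantile normalization for TCF12 and a pseudocount of 5 for ID3. With only the Jurkat libraries fitted, neither passed, so these calls depend on the setting.

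In BJAB cells given anti-IgM and anti-CD40, ID3 and ID2 moved in opposite directions. ID3 was at 740.5 and 749.2 TPM (3581 and 3445 reads) in stimulated cells, against 264.3 and 257.9 TPM (958 and 1017 reads) in untreated cells. The libraries of each group lay close together and the groups were far apart, with a log2 change of 1.51 ± 0.37 (95% interval 0.70 to 2.32; adjusted p = 0.0343). ID2 was at 44.7 and 113.8 TPM (238 and 576 reads) in stimulated cells, against 225.8 and 212.2 TPM (901 and 921 reads) in untreated cells. Both stimulated libraries were below both untreated ones, the first far more so, with a log2 change of -1.60 ± 0.41 (95% interval -2.50 to -0.71; adjusted p = 0.0405). These 2 of 6 compare with 6.40% of all tested genes (1.63% higher and 4.76% lower).

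Both BJAB calls lie near the threshold. The SE of a gene is shared by all 8 groups. That of ID3 thus also holds the spread of libraries with few ID3 reads, such as LPS-treated THP-1 (17 and 36 reads) and U937 cells (8 and 2 reads). With only the BJAB libraries fitted, neither ID3 nor ID2 passed. Under the 15 alternatives ID3 passed in 8, its log2 change staying between 1.37 and 1.84 and its adjusted p between 0.00280 and 0.187. ID2 passed in 6, its change running from -2.27 to -0.94 and its adjusted p from 0.00130 to 0.459. Without the first stimulated U937 and BJAB libraries, ID3 still passed (1.52, adjusted p = 0.0268) and ID2 did not (-0.94, adjusted p = 0.0554). Without the first stimulated BJAB library alone, neither passed (ID3 adjusted p = 0.140, ID2 adjusted p = 0.275), and the same was true without either untreated BJAB library. With the replicate number as a block, neither passed (ID3 adjusted p = 0.0605, ID2 adjusted p = 0.0885).

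None of the 3 E proteins passed the test in BJAB. TCF3 was at 25.7 and 49.7 TPM in stimulated cells and at 62.2 and 83.2 TPM in untreated cells, a log2 change of -0.99 ± 0.31 (adjusted p = 0.0849). The second stimulated library was nearer the untreated level, and on it alone the change was -0.53 (adjusted p = 0.148 without the first stimulated U937 and BJAB libraries). TCF4 was at 60.5 and 53.3 TPM in stimulated and 69.6 and 78.0 TPM in untreated cells, and TCF12 at 27.5 and 31.9 TPM in stimulated and 37.8 and 37.7 TPM in untreated cells. All 3 had both stimulated libraries below both untreated ones, as had 32.9% of all tested genes, whose median log2 change was -0.14 in BJAB. ID1 stayed near its limit of detection, at 4 and 4 reads in stimulated and 0 and 2 reads in untreated cells (adjusted p = 0.211). When the first stimulated U937 and BJAB libraries were left out, TCF4 was at -0.46, TCF12 at -0.24 and ID1 at 0.61, and none passed. B cell markers summed to 1395 and 3682 TPM in the stimulated BJAB libraries, against 5322 to 5641 TPM in the untreated ones; their part in these results was not tested. In such bulk samples, fewer cells of a type and less RNA per cell cannot be told apart.

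**Figure D3:**
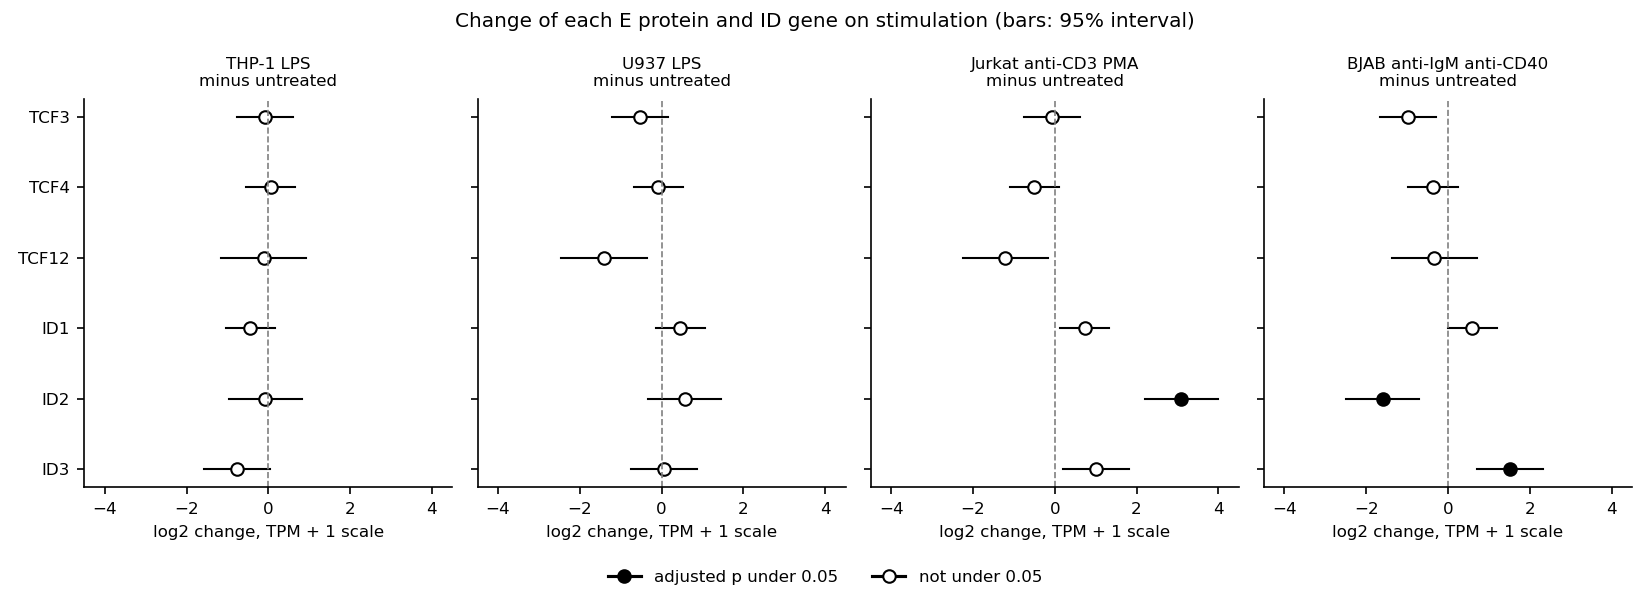
Log2 change of each gene (stimulated minus untreated, log2(TPM + 1) scale) in the 4 lines, with 95% intervals from limma; filled points have an adjusted p under 0.05. ID2 lies at 3.10 in Jurkat and -1.60 in BJAB, ID3 at 1.51 in BJAB, and no point is filled in THP-1 or U937.

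The ID2 response itself differed between Jurkat and BJAB cells. The Jurkat change minus the BJAB change was 4.70 ± 0.58 on the log2 scale (95% interval 3.43 to 5.96; adjusted p = 0.000546), the 1 gene of the 6 past the threshold, against 5.24% of all tested genes. It passed under all 19 alternatives, between 4.02 and 5.36, and was 4.04 without the first stimulated U937 and BJAB libraries. For ID3 the difference did not pass (-0.50, 95% interval -1.64 to 0.65; adjusted p = 0.683), nor did it for ID1 (0.13, adjusted p = 0.925). The line, the ligands and their doses differ together in this comparison and cannot be told apart.

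LPS was not followed by a called change of any of the 6 genes in the monocytic lines. In THP-1, 0 of 6 passed, against 0.167% (24) of all tested genes (0.118% higher and 0.0486% lower), and 522 of all tested genes had an unadjusted p under 0.05. ID2 in THP-1 was at 115.3 and 114.9 TPM with LPS and at 116.7 and 126.3 TPM untreated, a log2 change whose 95% interval was -0.97 to 0.82. ID1 was at 30.2 and 30.8 TPM with LPS and at 42.3 and 41.0 TPM untreated, the groups apart by more than the spread within them, at a log2 change of -0.44 ± 0.27 (adjusted p = 1). How many of all tested genes were apart in this way in THP-1 was not counted. ID3 was at 3.59 and 8.76 TPM with LPS and at 9.19 and 11.7 TPM untreated (adjusted p = 1). All 3 E proteins overlapped between LPS-treated and untreated THP-1 cells: TCF3 was at 27.4 and 29.3 TPM with LPS and 31.0 and 28.8 TPM untreated, TCF4 at 1.33 and 1.06 TPM with LPS and 1.11 and 1.11 TPM untreated, and TCF12 at 84.4 and 71.0 TPM with LPS and 79.6 and 88.4 TPM untreated.

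In U937, 0 of 6 passed, against 0.0278% (4) of all tested genes, and 2176 had an unadjusted p under 0.05. The median log2 change of all tested genes in U937 was -0.25. How many of them had both LPS libraries on the same side of both untreated ones was not counted. TCF12 stood at 14.1 and 55.4 TPM with LPS and at 80.1 and 72.4 TPM untreated. Both LPS libraries were below both untreated ones but differed widely from each other, at a log2 change of -1.40 ± 0.47 (adjusted p = 0.329). Without the second LPS library it was -2.36 and passed (adjusted p = 0.000410), and on that second library alone it was -0.45. ID2 was at 253.2 and 154.3 TPM with LPS and at 142.9 and 123.8 TPM untreated (0.57 ± 0.41, adjusted p = 0.441), and ID1 at 21.5 and 27.2 TPM with LPS and at 17.8 and 16.8 TPM untreated (0.46 ± 0.27, adjusted p = 0.369). TCF3 was at 23.4 and 31.9 TPM with LPS and at 40.1 and 39.4 TPM untreated (-0.52 ± 0.31, adjusted p = 0.371). TCF4, at 1.95 and 4.08 TPM with LPS and 2.49 and 3.83 TPM untreated, and ID3, at 1.75 and 0.455 TPM with LPS and 0.862 and 0.970 TPM untreated, straddled the untreated values. The U937 changes without the first stimulated U937 and BJAB libraries were -0.45 for TCF12, -0.31 for TCF3, 0.31 for TCF4, 0.62 for ID1, 0.21 for ID2 and -0.40 for ID3, and none passed (adjusted p from 0.789 to 1). The signs for TCF4 and ID3 were thus opposite to those with all libraries, uncalled in both.

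The difference between the THP-1 and U937 responses passed for none of the 6, against 0.0486% (7) of all tested genes, with 891 genes at an unadjusted p under 0.05. ID1 was lower with LPS in both THP-1 libraries and higher in both U937 libraries (difference of responses -0.90 ± 0.39, 95% interval -1.75 to -0.05; adjusted p = 0.746). The LPS dose also differed between these lines.

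The balance of inhibitor and E protein mRNA is given as summed TPM of ID1, ID2 and ID3 over summed TPM of TCF3, TCF4 and TCF12, as a description. In Jurkat it was 1.75 and 2.69 in stimulated cells and 0.492 and 0.593 in untreated cells, the untreated group being the only one of 8 whose mean was under 1. In BJAB it was 6.92 and 6.404 in stimulated cells and 2.89 and 2.37 in untreated cells. In THP-1 it was 1.32 and 1.53 with LPS and 1.51 and 1.51 untreated, and in U937 7.02 and 1.99 with LPS and 1.32 and 1.22 untreated.

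The stimulated and untreated libraries did not overlap in Jurkat, BJAB or U937, and overlapped in THP-1. The U937 value of 7.02 belongs to the library that read lower with gene length. The BJAB value of 6.92 belongs to the library that read lower with GC content. The part of length and GC in these ratios was not tested. The ratio is of mRNA levels and weighs all members alike; by reads in place of TPM, 2 of the 8 group means were above 1, in place of 7, and without ID2 in the sums 3 were. Without ID3 the BJAB direction turned, with a mean ratio of 0.625 in stimulated and 1.20 in untreated cells, and the Jurkat means were 0.735 in stimulated and 0.104 in untreated cells. Without TCF12 no group mean was under 1, untreated Jurkat cells being at 1.55.

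The make-up of the sums also differed. In stimulated BJAB cells ID3 was 94.2 and 86.7% of the summed ID TPM, against 53.9 and 54.8% in untreated cells, and the ID sum itself was 786.1 and 863.9 TPM, against 490.1 and 470.6 TPM. In stimulated Jurkat cells ID2 was 21.5 and 25.6% of the ID sum, against 8.30 and 3.91% in untreated cells. The E protein sum in Jurkat was 119.3 and 86.9 TPM in stimulated cells, against 170.1 and 164.8 TPM in untreated cells, and TCF3 made up 49.7 and 57.0% of it in stimulated cells, against 30.0 and 38.1% in untreated cells.

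**Figure D4:**
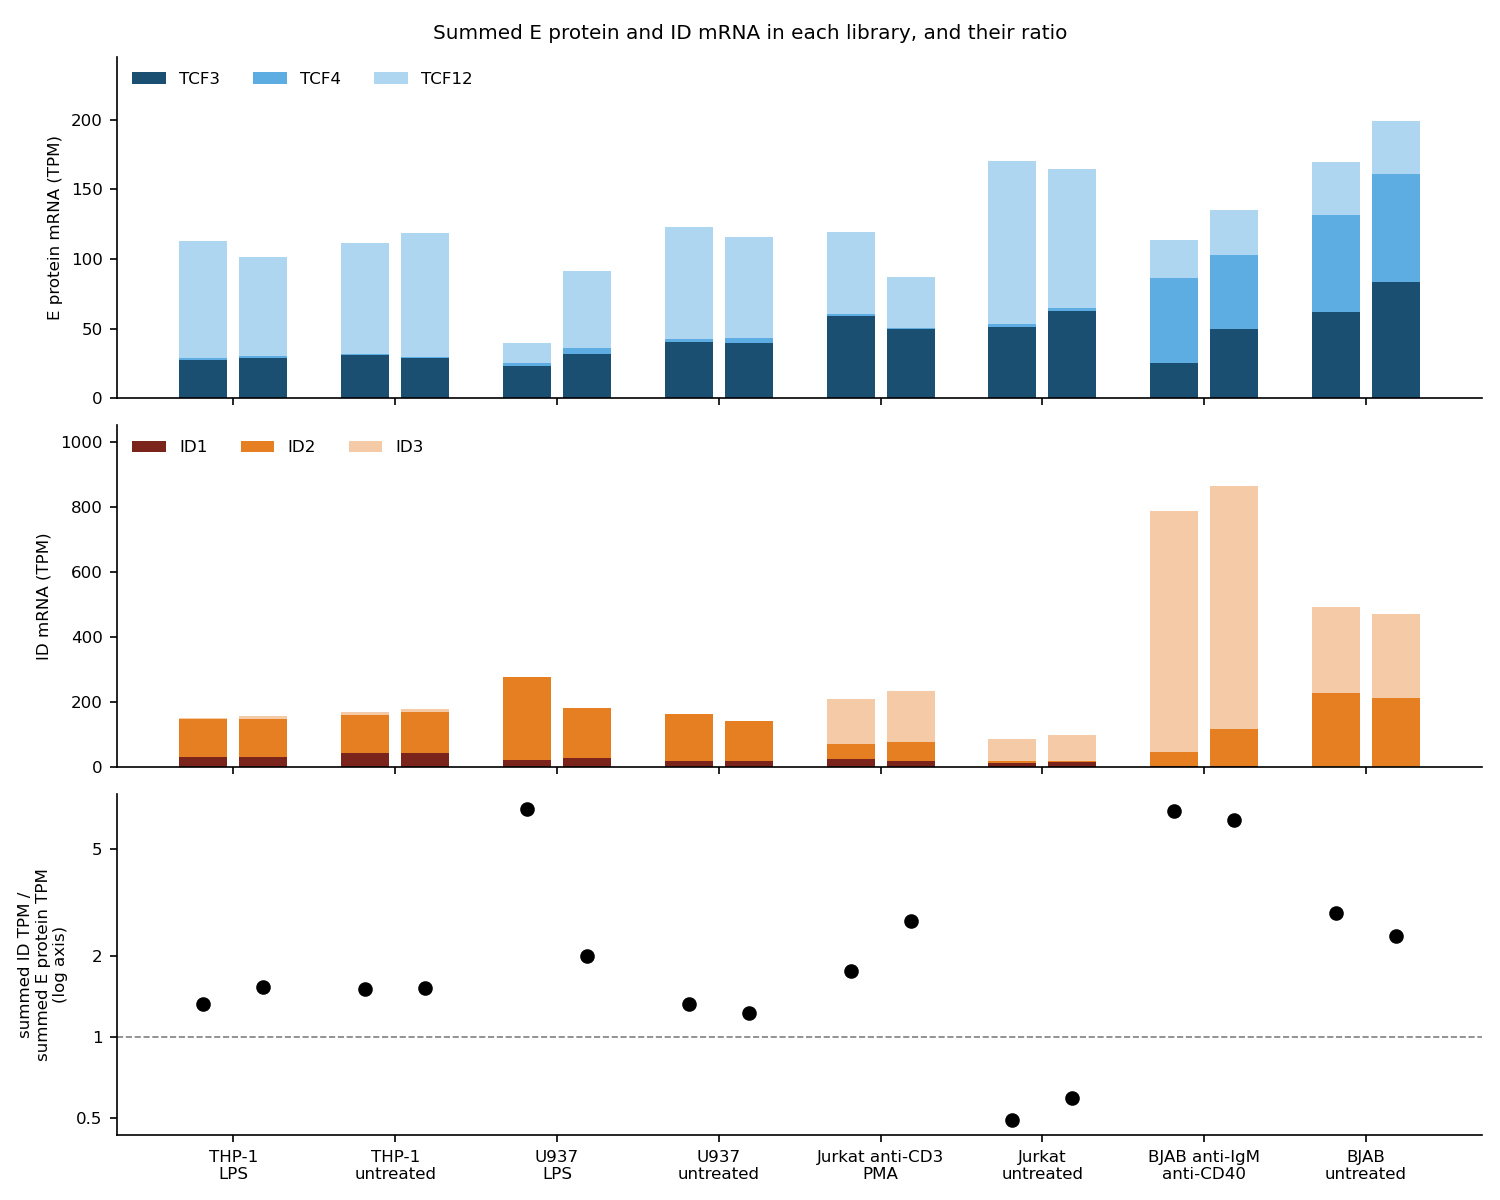
Summed TPM of the 3 E proteins (top) and the 3 ID genes (middle), stacked by gene, and the ratio of the ID sum to the E protein sum on a log axis (bottom), for each library. Untreated Jurkat cells are the 1 group under a ratio of 1, at 0.492 and 0.593, and ID3 fills most of the ID sum in stimulated BJAB cells.

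Genes of the E protein network were described from 7 lists, as counts past the threshold beside the background shares above. The list of EGR factors, which lie between antigen receptor signals and Id3 in mouse thymocytes, also held their NAB corepressors. Of its genes, 6 of 6 rose in Jurkat (median log2 change 2.62, all tested genes -0.03) and 2 of 6 in BJAB (0.83, all tested genes -0.14). EGR1 was at 361.2 and 407.6 TPM in stimulated Jurkat cells, against 5.77 and 5.20 TPM in untreated ones (5.89 ± 0.30, adjusted p = 2.71e-07). In BJAB, EGR1 was at 309.8 and 296.4 TPM in stimulated cells, against 10.03 and 14.03 TPM in untreated ones (4.56 ± 0.30, adjusted p = 4.47e-06). NAB2, a corepressor of EGR factors, rose in both lines, by 3.45 ± 0.65 in Jurkat and 3.17 ± 0.65 in BJAB, though the 2 stimulated BJAB libraries differed (9.36 and 62.8 TPM, against 1.77 and 1.97 TPM in untreated cells). The BJAB changes without the first stimulated U937 and BJAB libraries were 4.53 for EGR1 and 4.48 for NAB2, and both passed. EGR2 (4.64 ± 0.34) and NAB1 (1.67 ± 0.37) rose in Jurkat, as did EGR3 and EGR4, which stayed under 4 TPM and were named after their values were seen. In THP-1 and U937, 0 of the 6 passed.

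Of 11 T lineage genes under E protein control, 4 fell and 1 rose in stimulated Jurkat cells (median -1.13). RAG1 and RAG2, the recombinase that cuts antigen receptor genes, were at 0.637 and 0.182 TPM and at 1.80 and 2.66 TPM in stimulated cells, against 17.6 and 16.3 TPM and 43.7 and 34.8 TPM in untreated cells (RAG1 -3.69 ± 0.17, RAG2 -3.64 ± 0.17, each adjusted p = 1.70e-07). BCL11B, a T lineage commitment factor, was at 23.5 and 17.2 TPM in stimulated cells, against 61.7 and 49.0 TPM in untreated cells (-1.41 ± 0.20, adjusted p = 0.00126). TCF7, which encodes TCF-1 and is no E protein, also fell and was named after its values were seen (-1.13 ± 0.27, adjusted p = 0.0320). The riser was GATA3, a T cell factor that is also in the cofactor list (0.89 ± 0.20, adjusted p = 0.0270). In BJAB 1 of the 11 fell, PTCRA, named after its values were seen, at 0 and 0 reads in stimulated cells, against 2 and 8 reads in untreated cells, and it no longer passed without the first stimulated U937 and BJAB libraries (adjusted p = 0.0801).

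Of 14 B lineage genes, 4 fell and 1 rose in Jurkat, and 5 fell and 0 rose in BJAB (median -1.27 in BJAB). The Jurkat falls include RAG1 and RAG2, which are on both lists, and VPREB1, a surrogate light chain gene, at 0 and 0.922 TPM in stimulated cells, against 14.99 and 24.04 TPM in untreated cells (adjusted p = 0.000967). The fourth was CXCR4, a chemokine receptor, named after its values were seen (-1.38 ± 0.33, adjusted p = 0.0350). POU2AF1, the B cell coactivator OCA-B, moved in opposite directions. It rose in Jurkat, at 43.3 and 34.0 TPM in stimulated and 5.23 and 4.81 TPM in untreated cells (2.71 ± 0.39, adjusted p = 0.00131), and fell in BJAB, at 13.4 and 41.6 TPM in stimulated and 112.6 and 138.9 TPM in untreated cells (-2.35 ± 0.39, adjusted p = 0.00491).

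In BJAB, SPIB (-2.63 ± 0.53), PAX5 (-2.11 ± 0.39) and CD79B (-2.35 ± 0.57) also fell, with EBF1, a B lineage factor named after its values were seen, at 24.8 and 51.2 TPM in stimulated cells, against 81.8 and 87.2 TPM in untreated cells (-1.22 ± 0.30, adjusted p = 0.0336). CD79B, a chain of the B cell receptor, was at 320.9 and 1106 TPM in stimulated cells, against 3005 and 3082 TPM in untreated cells. Without the first stimulated U937 and BJAB libraries these falls were smaller, at -1.67 for SPIB (adjusted p = 0.0392), -1.46 for PAX5 (adjusted p = 0.0344) and -1.56 for POU2AF1 (adjusted p = 0.00342), and CD79B (-1.46, adjusted p = 0.0738) and EBF1 (-0.71, adjusted p = 0.0654) no longer passed.

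Of the 17 tested cofactors, 1 rose and 2 fell in Jurkat and 2 fell in BJAB. LMO1, a LIM adaptor that joins TAL1 and E proteins in T cell leukaemia, was at 2.02 and 1.47 TPM in stimulated Jurkat cells, against 20.7 and 19.8 TPM in untreated ones (-2.96 ± 0.23, adjusted p = 1.19e-05), and SSBP2, which stabilises such complexes, fell by 1.38 (SE 0.31, adjusted p = 0.0236). In BJAB the ETO-family corepressors CBFA2T3 (-1.63 ± 0.38, adjusted p = 0.0293) and CBFA2T2 (-1.32 ± 0.27, adjusted p = 0.0150) fell, and both also passed without the first stimulated U937 and BJAB libraries (-1.68 and -1.34). Of the 7 tested dimer partners, 1 passed in any line: MSC, a helix-loop-helix repressor, rose in THP-1, at 53.4 and 41.9 TPM with LPS and 14.7 and 15.9 TPM untreated (1.57 ± 0.17, adjusted p = 0.00205). TAL1, the partner of E proteins in T cell leukaemia, was at 40.01 and 35.8 TPM in stimulated Jurkat and 60.1 and 55.05 TPM in untreated Jurkat cells, and listed at 0 in the other lines.

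Of the 20 tested BMP and TGF-beta receptor and SMAD genes, which lie upstream of ID genes in many cells, 1 rose and 1 fell in Jurkat and 0 passed in the other lines. The riser was TGFBR2, the type II TGF-beta receptor, at 46.8 and 28.6 TPM in stimulated cells, against 10.1 and 10.4 TPM in untreated cells (1.74 ± 0.41, adjusted p = 0.0311). The faller was SMAD6, an inhibitory SMAD named after its values were seen, at 1.19 and 0.498 TPM in stimulated cells, against 3.33 and 3.46 TPM in untreated cells (adjusted p = 0.0270). Of the 7 tested cell cycle regulators, CDKN1A, the inhibitor p21 that E proteins can activate, rose in Jurkat, at 195.9 and 183.2 TPM in stimulated cells, against 2.64 and 0.922 TPM in untreated cells (6.17 ± 0.74, adjusted p = 0.000323). CDK6 fell in BJAB, at 6.64 and 12.7 TPM in stimulated cells, against 25.7 and 28.96 TPM in untreated cells (-1.47 ± 0.39, adjusted p = 0.0466), and by 1.05 on the log2 scale without the first stimulated U937 and BJAB libraries (adjusted p = 0.00335). In U937, 0 genes of these lists passed, where 4 of all tested genes did.

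The genes most like each member were taken as those with the highest Pearson r over the 8 group means of log2(TPM + 1), among 11417 candidates, as a description of 8 points drawn from 4 lines. For ID3 they were AMZ2P1 (r = 0.994), CD53 (0.989) and CTTN (0.987), and for ID1 APOBEC3G (0.988), DOK2 (0.985) and LGALS8 (0.983). For TCF4 they were SNX29P1 (0.991), NLRP2 (0.990) and TXNDC16 (0.989), and for TCF3 ACTR1A (0.987), LMTK2 (0.986) and SBF1 (0.981). The nearest patterns to TCF12 and ID2 were less close: GRPEL2 (0.962), CREBZF (0.947) and C6orf89 (0.939) for TCF12, and AP3D1 (0.959), HLA-B (0.918) and TLCD1 (0.909) for ID2. Among the 6 genes the strongest relation was that of TCF4 with ID1 (r = -0.97), the BJAB groups being high in TCF4 and low in ID1.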

How the data were processed

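RNA was made into SmartSeq2 libraries with oligo-dT priming. Per the submitters' processing notes, TopHat2 and build hg19 were used. The counting program, annotation and versions were not given in the sources used here. Values were deposited as TPM from uniquely aligned reads, by the authors, in 1 file per library. Whole reads were recovered from the TPM steps (tolerance 0.001) for 17860 of 19092 genes (93.5%).

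limma 3.58.1 (R 4.3.3) was fitted with a trend to log2(TPM + 1), pseudocount 1, of the 14398 genes reaching 1 TPM in 2 or more libraries, over 16 libraries in 8 groups (8 residual degrees of freedom). Each gene has 1 estimate of spread shared by all 8 groups, so an SE is not that of the compared libraries alone. All p-values are two-sided and adjusted by Benjamini-Hochberg across the tested genes. On this scale the change of low genes is understated. Alternatives covered pseudocount, filter, scaling, trend, replicate block, voom on recovered reads, and libraries left out. Scripts were tested on simulated data. Gene lengths came from reads per TPM and GC content from the longest GENCODE transcript (96.2% of genes). Without knowledge of strand in counting, antisense overlaps cannot be told apart. Network genes named were up to 4 called per list and stimulation with the largest change and a mean of at least 5 TPM in the higher group; TAL1, ID4 and the repeated list members are named beside them, and TCF7, CXCR4, EBF1, PTCRA, SMAD6, EGR3 and EGR4 were named after their values were seen. One gene of the T lineage list as first drawn up is not reported here and is not among its 11. The members and lists were chosen with earlier results of these data known.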

Additional observations from a re-analysis of the deposited data

Results flagged for a closer look

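The ID2 response differed between lines: the change in Jurkat cells (45.0 and 59.9 TPM stimulated, 6.94 and 3.82 TPM untreated) minus that in BJAB cells (44.7 and 113.8 TPM stimulated, 225.8 and 212.2 TPM untreated) was 4.70 on the log2 scale, and the test of the difference itself passed (limma, adjusted p = 0.000546). The stimulated levels of ID2 in these lines were closer to each other than the untreated levels. Between the monocytic lines, ID1 was lower in both LPS libraries of THP-1 and higher in both LPS libraries of U937, a difference of responses of -0.90 that did not pass (adjusted p = 0.746). ID2 was above both untreated libraries in U937 (log2 change 0.57 ± 0.41, SE) but only just below both in THP-1. In THP-1 it was at 115.3 and 114.9 TPM with LPS and at 116.7 and 126.3 TPM untreated (-0.08 ± 0.41), so no ID2 response was shown there. The difference of ID2 responses, -0.64, did not pass (adjusted p = 0.752). How many of all tested genes had both LPS libraries on the same side of both untreated ones was not counted in either line.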

How the results depend on the processing

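Of 1128 alternative values for the 72 gene-by-comparison results, 1060 kept their side of the threshold, 35 fell short of it, 33 newly passed it and 0 reversed a called direction. Uncalled changes could switch sign and still be among the 1060, as did TCF4 in U937 (-0.48 to 0.32 over its 15 alternatives). The number of the 6 genes past the threshold moved by more than 1.5 times as follows. In stimulated Jurkat cells (1) it was 2 with a pseudocount of 5 or with quantile normalization, 3 without the first stimulated U937 and BJAB libraries, and 0 with only the compared libraries. In stimulated BJAB cells (2) it was 0 with a pseudocount of 0.1, with only the compared libraries or with the replicate number as a block, and 1 with no filter, median-of-ratios scaling, quantile normalization or without those 2 libraries. In BJAB minus U937 untreated (3) it was 5 with either scaling and 6 without those 2 libraries or with only the compared ones. The causes were not tested. Leaving out each library in turn gave 0 to 1 in U937, 0 to 3 in stimulated BJAB, 0 to 1 for the THP-1 minus U937 responses and 1 to 2 for the Jurkat minus BJAB responses. The ratio of ID to E protein mRNA was above 1 in 7 groups, in 2 by reads, which weigh genes by length, and in 3 without ID2. Median-of-ratios scaling moved the median of all genes up by 0.25 in U937 and 0.14 in BJAB; under it TCF4 in U937 read 0.27 in place of -0.08, uncalled in both. With replicate numbers as a block, no count other than that in BJAB moved by more than 1.5 times; same-numbered deviations correlated at 0.012, -0.042, 0.017 and 0.142 in THP-1, U937, Jurkat and BJAB, so the numbers were not taken to pair libraries. Without the first stimulated U937 and BJAB libraries, the falling T lineage genes in BJAB went to 0, against 1 with them, the falling cell cycle genes in BJAB to 2, against 1, and the falling dimer partners and cell cycle genes in Jurkat to 1 each, against 0.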
